A study of Mus musculus with 12 samples.

Results

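The genes described here encode the moving skeleton of motile cilia, and they were chosen by family name: dynein arm chains (Dnah, Dnai, Dnal), cilia and flagella associated proteins (Cfap), radial spoke heads (Rsph), tektins, the Drc genes, Spag6, Spag6l, Spag16, Spag17 and Hydin. The rule took 69 protein-coding genes of the 55385 genes listed, of which 21856 are protein-coding. Of these 69 members, 62 had enough counts to be tested and 7 did not. Polyadenylated RNA of whole cerebellum was sequenced at postnatal day 14 from C57BL/6 mice, in 3 libraries of wild type (WT) and 3 of EED-/- conditional knockouts. EED is a core subunit of Polycomb repressive complex 2, which methylates histone H3 at lysine K27. The labels give neither the promoter of the Cre nor the deleted exons, and do not say that each library came from its own animal, so p-values measure the spread between these libraries. The 6 ChIP-seq samples of the series were not analysed here.

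A motile cilium is built on doublet microtubules around a central pair. Outer and inner dynein arms on the doublets make them slide, the nexin-dynein regulatory complex limits the sliding, and radial spokes pass signals from the central pair to the arms. In the brain such cilia cover ependymal cells, which line the ventricles and move cerebrospinal fluid, and the transcription factor Foxj1 switches on much of the gene set. Sperm tails use the same structure, so some family members are best known from testis. Several CFAP genes and the light chains Dnal1 and Dnal4 are not restricted to motile cilia in what is known of them, and the names alone do not make every member an axonemal gene.

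Levels are in CPM, counts scaled to library size with TMM factors. They are given for replicates 1, 2 and 3 of a genotype in that order, or as the mean ± SD of its libraries (n = 3). A gene is called where edgeR's quasi-likelihood F test gave a Benjamini-Hochberg adjusted p under 0.05 over all 18091 tested genes. The libraries held 19621814 to 20366173 estimated counts, so 3 counts in a library correspond to 0.141 to 0.161 CPM. Eed was lower in each EED-/- library (9.31 to 11.6 CPM) than in each WT library (20.1 to 26.6 CPM), with a log2 fold change of -1.12 and an adjusted p = 0.0015. All 20 markers of granule neurons, the main neurons of this tissue, were called lower, and their summed level was 8304 ± 1001 CPM in WT and 1361 ± 150 CPM in EED-/-. Mitochondrial genes took 3.21% to 6.37% of counts in WT and 6.45% to 8.04% in EED-/-, and the part of this in the members' values was not tested. In whole tissue, fewer cells of a type and less RNA per cell cannot be told apart, and the part of this change in the values below was not tested.

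Among the 62 tested members 13 rose in EED-/- cerebellum and 4 fell. Over all tested genes 11.7% were called higher and 14.1% lower, against 21.0% and 6.45% of the tested members. The rises were 1.62-fold to 2.45-fold, and the falls 1.84-fold to 2.51-fold. The members that rose were the central pair genes Cfap46, Cfap54, Cfap65 and Spag6l, the inner arm genes Cfap44, Cfap100, Dnah12 and Dnah7a, the tektins Tekt1 and Tekt5, the doublet gene Cfap45, the outer arm heavy chain Dnah5 and the radial spoke head Rsph4a. Tekt2, Cfap53, Cfap58 and Dnah11 fell.

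The other tested members leaned the same way without being called. Of all 62, 48 had a positive log2 fold change, where 47.5% of all tested genes did, and the median log2 change was 0.40 against -0.03 over all tested genes. Of the 45 members not called, 35 had a positive and 10 a negative change, from -0.75 to 1 on the log2 scale with SEs of 0.103 to 0.513. The genotypes did not overlap for 26 tested members that were higher and 6 that were lower, against 20.1% and 23.8% of all tested genes. Upper-quartile scaling and library size alone moved the median change of all genes up by 0.12 and 0.10. Among members, Rsph3a was the one whose sign changed with these scalings or with RLE size factors. Summed over all 69 members, the level was 396, 451 and 420 CPM in WT, and 479, 482 and 559 CPM in EED-/-, so each EED-/- library was above each WT library. Abundant members weigh most in this sum. Cfap36 alone had 61 ± 21.5 CPM in WT and 83.8 ± 12.1 CPM in EED-/-, and 0 of the 10 members with a mean of at least 10 CPM were called.

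The number of calls depended on single libraries, among members as among all genes. Without WT replicate 3, 7 members were called higher and 1 lower, where 7.15% and 8.85% of all tested genes were. Leaving out EED-/- replicate 1 gave 9 higher and 1 lower (6.5% and 7.2% of all genes), and leaving out EED-/- replicate 2 gave 11 and 1 (7.22% and 9.35%). Leaving out EED-/- replicate 3 gave 9 and 2 (10.5% and 9.08%), and leaving out WT replicate 2 gave 12 and 1 (11% and 13.4%). In each of these fits the share of the tested members called higher was above that of all genes and the share called lower was below it. Without WT replicate 1 there were 14 and 4 (11.7% and 11.1%). Calls that held in all 14 alternatives were those of Cfap44, Cfap46, Cfap54, Rsph4a, Tekt1, Tekt2 and Tekt5, 7 of the 17.

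**Figure D1:**
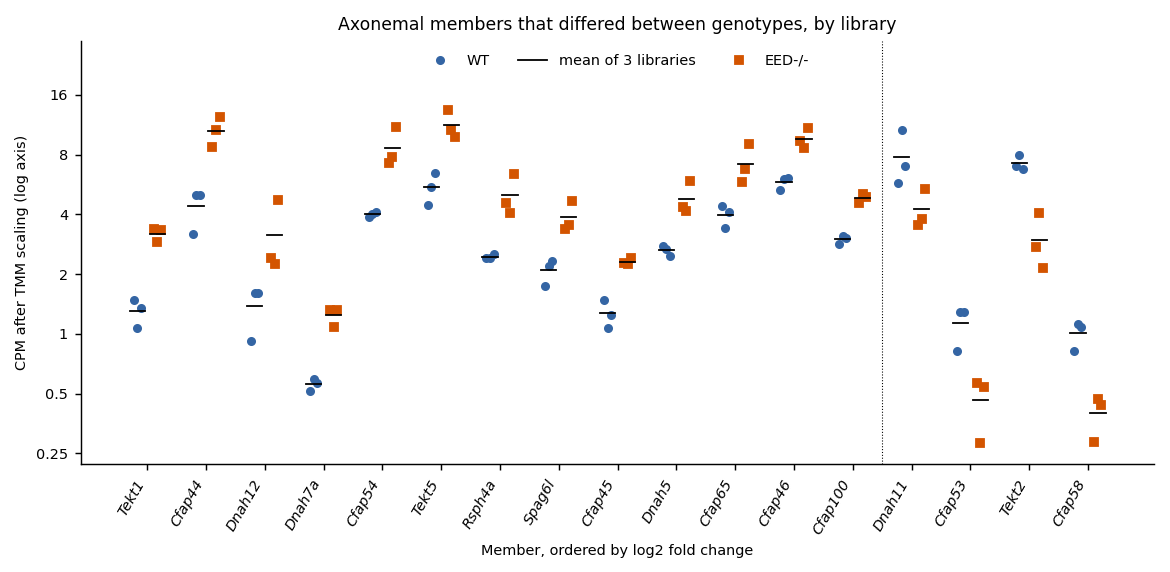
CPM (log axis) of the 17 called members in each of the 3 WT libraries (circles) and 3 EED-/- libraries (squares), with a line at each mean; the dotted line separates the 13 higher from the 4 lower members. The genotypes do not overlap for any of the 17, and the levels run from 0.282 CPM (Cfap53 in EED-/- replicate 2) to 13.4 CPM (Tekt5 in EED-/- replicate 1).

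Promoter sequences were compared because 13 members rose together, and RFX factors, which work with Foxj1, bind a motif called the X-box in promoters of ciliary genes. RefSeq windows of GRCm38.p6 from 250 bases before to 50 after the start were matched by symbol for 58 of 69 members (65 windows). They were searched on both strands for the X-box as GTNNCC and GNAAC parted by any 3 bases, its half-site GTTGCC and the forkhead motif GTAAACA; the half-site can lie inside an X-box. The X-box was in 10 of 65 member windows (15.4%), against 2.17% of all 32851 windows. The half-site was in 36.9% against 12.5%, and the forkhead letters in 6.15% against 3.65%. Among members with a window, the X-box was in 3 of 10 that rose (Cfap44, Cfap45 and Spag6l) and 0 of 3 that fell, and in 7 members that were not called: Cfap206, Cfap298, Cfap61, Dnah17, Hydin, Spag16 and Tekt4. The half-site was in 6 of the 10 that rose and 2 of the 3 that fell, and the forkhead letters in 0 of 10 and 0 of 3. A match describes these letters only.

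The X-box matches of the 3 called members are shown with neighbouring bases, on the strand of the gene, with the 14 matched bases in capitals; in all 3 the motif reads on the opposite strand. That of Cfap44 (chr16:44394764-44394793) lies 27 to 14 bases before the start and that of Cfap45 (chr1:172521103-172521132) 19 to 6 bases before it, while that of Spag6l (chr16:16829314-16829337) lies just past the start. These are RefSeq starts. GENCODE places the starts of Cfap45 and Spag6l at 172520801 and 16829456, so both matches lie inside its spans of these genes.
Cfap44: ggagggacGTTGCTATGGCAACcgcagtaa
Cfap45: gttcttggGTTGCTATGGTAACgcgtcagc
Spag6l: tgctgtcgGTTGCCCTGGAGACgc

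The 250 bases before the start are shown for Cfap44, the called inner arm gene with an X-box, and for the tektins that moved in opposite directions, Tekt1 (higher, chr11:72361883-72362132, minus strand) and Tekt2 (lower, chr4:126325647-126325896, minus strand). Capitals mark the X-box in Cfap44 (chr16:44394549-44394798, plus strand) and the half-site GTTGCC or its reverse complement in the tektins. The half-site letters occur in both tektins. Starts are those of RefSeq, and the Tekt1 window lies inside the GENCODE span of Tekt1 (72344722 to 72362442). RefSeq gives Tekt2 2 starts in this table, both with the half-site, and the window of the start further into the gene is shown.
Cfap44: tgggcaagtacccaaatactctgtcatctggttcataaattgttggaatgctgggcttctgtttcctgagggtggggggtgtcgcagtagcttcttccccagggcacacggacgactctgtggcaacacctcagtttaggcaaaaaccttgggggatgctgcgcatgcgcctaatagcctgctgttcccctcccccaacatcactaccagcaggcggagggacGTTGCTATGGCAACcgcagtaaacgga
Tekt1: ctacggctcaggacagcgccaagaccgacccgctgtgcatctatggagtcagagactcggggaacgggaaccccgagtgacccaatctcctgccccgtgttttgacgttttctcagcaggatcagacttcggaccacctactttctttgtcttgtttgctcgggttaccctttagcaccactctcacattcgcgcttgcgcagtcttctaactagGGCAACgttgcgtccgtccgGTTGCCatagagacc
Tekt2: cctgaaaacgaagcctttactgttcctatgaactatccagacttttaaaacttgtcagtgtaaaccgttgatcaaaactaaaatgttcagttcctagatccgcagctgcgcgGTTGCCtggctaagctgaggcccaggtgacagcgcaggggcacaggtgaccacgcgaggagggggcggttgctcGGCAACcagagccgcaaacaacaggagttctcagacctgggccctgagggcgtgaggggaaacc

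Outer dynein arms carry the heavy chains Dnah5, Dnah9, Dnah11, Dnah8 and Dnah17, the first 3 of airway and ependymal cilia and the last pair best known from sperm. Of 7 tested outer arm members 1 rose and 1 fell, shares near the 11.7% and 14.1% of all tested genes. Dnah5, whose loss causes primary ciliary dyskinesia and hydrocephalus in mice, stood at 2.77, 2.68 and 2.48 CPM in WT and 4.36, 4.14 and 5.92 CPM in EED-/-. All EED-/- libraries were above all WT libraries, by 0.86 on the log2 scale (SE 0.208, adjusted p = 0.0174), and the call was lost in 2 of 14 alternatives, one of them without WT replicate 3. Dnah5 (ENSMUSG00000022262.8) lies on chromosome 15 at 28203752 to 28472052 in GRCm38.

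Dnah11, the outer arm member that fell, stood at 5.75, 10.7 and 7.03 CPM in WT and at 3.55, 3.81 and 5.38 CPM in EED-/-. The log2 change was -0.88 (SE 0.269, adjusted p = 0.043), and the lowest WT and highest EED-/- library lay close together. Its call ended in 8 of 14 alternatives, among them limma-voom, upper-quartile scaling and library size alone. Its exons share 642 bases (4.4% of its exonic length) with Cdca7l on the opposite strand, which was called higher, and the sources used here do not say whether reads were counted by strand.

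The remaining outer arm members were not called. Dnah9 had 5.44, 3.06 and 4.75 CPM in WT and 5.78, 5.55 and 7.44 CPM in EED-/-, a log2 change of 0.50 with an adjusted p of 0.165. Dnah8 and Dnah17 had changes of 0.33 and -0.14. The light chain Dnal1 was the most abundant outer arm gene at 52.4 ± 1.4 CPM in WT and 59.3 ± 4.06 CPM in EED-/- (log2 change 0.18, adjusted p = 0.246), and Dnal4 had a change of -0.35. No symbol of this annotation matches the Dnai part of the rule. The intermediate chains appear as Dnaic1 and Dnaic2, looked up after values were seen: Dnaic1 was called higher (3.79 ± 0.508 to 7.44 ± 0.995 CPM, adjusted p = 0.00656), and Dnaic2 was not (3.63 ± 0.24 and 4.34 ± 0.518 CPM).

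Inner dynein arms are built from several single heavy chains, and Cfap43, Cfap44, Cfap57, Cfap73 and Cfap100 tether or regulate them. Of 14 tested inner arm members 4 rose and 0 fell, where 11.7% of all tested genes were called higher and 14.1% lower. There were 0 lower at an unadjusted p under 0.05 and 0 lower by DESeq2 or limma-voom. Of the 14 changes 13 were positive, against 47.5% over all tested genes. Cfap44, part of the tether of the inner arm dynein f, stood at 3.18, 4.99 and 5.01 CPM in WT and 8.71, 10.6 and 12.4 CPM in EED-/-. The lowest EED-/- library exceeded the highest WT library, and the log2 fold change was 1.27 (SE 0.224, adjusted p = 0.0046), or 2.41-fold. Cfap44 (ENSMUSG00000071550.14) lies on chromosome 16 at 44394796 to 44482428 in GRCm38. Cfap43, its partner in the tether, had 2.26, 3.86 and 3.77 CPM in WT and 4.92, 4.09 and 5.14 CPM in EED-/-, which did not overlap but was not called (log2 change 0.52, adjusted p = 0.153).

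Cfap100, which regulates inner arm activity, had 2.82, 3.11 and 3.05 CPM in WT and 4.59, 5.08 and 4.89 CPM in EED-/- (log2 fold change 0.70, SE 0.171, adjusted p = 0.0186), and its call ended in 4 of 14 alternatives, 3 of which left out 1 library (WT replicate 3 or EED-/- replicate 1 or 2). The heavy chain Dnah12 had 0.923, 1.61 and 1.6 CPM in WT and 2.41, 2.26 and 4.75 CPM in EED-/-. Its log2 change of 1.18 (SE 0.364, adjusted p = 0.0438) was near the threshold, EED-/- replicate 3 was far above the other two, and the call ended in 6 of 14 alternatives, among them limma-voom. Dnah6, the most abundant inner arm gene, was not called, with 15.6, 15.9 and 13.7 CPM in WT and 16.7, 17.8 and 24.3 CPM in EED-/- (log2 change 0.38, adjusted p = 0.133).

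Dnah7a, Dnah7b and Dnah7c are near-identical heavy chain genes, and how the counts were divided among them is uncertain. Dnah7a was called higher, from 0.557 ± 0.0398 to 1.24 ± 0.14 CPM, on 32 counts over the WT and 78 over the EED-/- libraries. The far more abundant Dnah7b had 10.3, 11.9 and 10.4 CPM in WT and 5.78, 11.1 and 18 CPM in EED-/-, a spread over EED-/- libraries on both sides of the WT values. Summed, the 3 genes had 11.8, 14.2 and 12.7 CPM in WT and 7.81, 13.6 and 22.5 CPM in EED-/-, and the genotypes overlapped. The call of Dnah7a ended in 5 of 14 alternatives, DESeq2 among them, and does not carry over to the group of paralogues.

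The nexin-dynein regulatory complex links neighbouring doublets. Iqcg, a gene of this complex outside the rule, was called higher and is given below. None of the 3 tested members of the complex was called by edgeR, DESeq2 or limma-voom, and 1 had an unadjusted p under 0.05. That gene, Drc3, had 3.49, 2.95 and 4.19 CPM in WT and 4.64, 5.41 and 7.05 CPM in EED-/- (log2 change 0.68, adjusted p = 0.0534). It missed the threshold narrowly and was called with RLE factors, upper-quartile scaling and library size alone, and under either other count filter. Drc7 had a change of 0.64 (adjusted p = 0.151) without overlap. Drc1, the most abundant of the 3, had 5.27 ± 0.548 CPM in WT and 4.71 ± 0.381 CPM in EED-/- (adjusted p = 0.527).

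Radial spoke genes encode the heads (Rsph1, Rsph4a, Rsph9, and Rsph6a of sperm) and stalks (Rsph3a, Rsph3b) of the spokes. Of 8 tested members 1 rose and 0 fell, where 11.7% of all tested genes were called higher and 14.1% lower. The share that rose (12.5%) was near that of all genes. There were 2 higher and 0 lower at an unadjusted p under 0.05, and 0 lower by DESeq2 or limma-voom. Rsph4a, the head protein of motile cilia, had 2.41, 2.41 and 2.53 CPM in WT and 4.59, 4.04 and 6.36 CPM in EED-/-. The WT libraries were nearly equal and each EED-/- library was far above them, by 1.02 on the log2 scale (SE 0.221, adjusted p = 0.011). Rsph9 (log2 change 0.69, adjusted p = 0.0657) and Rsph1 (0.45, adjusted p = 0.172) of the same head were not called. Rsph6a had 0 counts in the WT libraries and 4, 0 and 3 counts in EED-/-, and was not tested. A count of 0 allows up to 3 counts, or 0.154 to 0.161 CPM in these WT libraries, counting error only. Rsph3b, the most abundant spoke gene, had 14.9 ± 2.76 and 12.8 ± 0.448 CPM (adjusted p = 0.356). Rsph3a and Rsph3b are close paralogues, and their sum was 24.6 ± 5.97 CPM in WT and 22.5 ± 1.78 CPM in EED-/-, with overlapping libraries.

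The central pair is a scaffold of single microtubules with projections that the spoke heads touch. Of its 11 tested members 4 rose and 0 fell, where 11.7% of all tested genes were called higher and 14.1% lower. DESeq2 and limma-voom each called 4 higher and 0 lower, and 1 was lower at an unadjusted p under 0.05. Cfap54, whose loss in mice gives hydrocephalus and immotile sperm, had 3.9, 4.02 and 4.13 CPM in WT and 7.24, 7.76 and 11 CPM in EED-/-. Its log2 fold change was 1.11 (SE 0.199, adjusted p = 0.00496), a 2.15-fold rise. Cfap54 (ENSMUSG00000020014.17) lies on chromosome 10 at 92775619 to 93081618. Cfap46, another projection gene, rose by 0.72 on the log2 scale (SE 0.158, adjusted p = 0.0119), from a mean of 5.83 ± 0.43 to 9.62 ± 1.13 CPM.

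Cfap65 had 4.41, 3.43 and 4.13 CPM in WT and 5.82, 6.77 and 9.01 CPM in EED-/- (log2 fold change 0.85, adjusted p = 0.0196), and Spag6l had 1.74, 2.2 and 2.33 and then 3.36, 3.53 and 4.7 CPM (0.88, adjusted p = 0.0223). In both, EED-/- replicate 3 was the highest library, and both calls were lost without WT replicate 3, that of Spag6l also without EED-/- replicate 3. Spag6l has the near-identical copy Spag6, which was too low to be tested; their sum was 2.54 ± 0.293 CPM in WT and 4.28 ± 0.789 CPM in EED-/-, again without overlap. Cfap74, the most abundant central pair member in CPM, had 10.4, 13.9 and 10.4 CPM in WT and 7.76, 6.11 and 10.2 CPM in EED-/- (log2 change -0.53, adjusted p = 0.113). Hydin, the long scaffold gene named for hydrocephalus, had 5.28, 5.26 and 5.37 CPM in WT and 3.46, 4.99 and 5.43 CPM in EED-/- (-0.20, adjusted p = 0.515). Spag16 and Spag17 had changes of 0.28 and 0.42. Spag17 shares 516 exonic bases with its antisense transcript Spag17os, which was called lower, and 820 with the protein-coding gene Wdr3 on the opposite strand. Cfap65 shares 287 exonic bases (3.7%) with the antisense transcript Gm15841.

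Doublet microtubules contain filaments of tektins and inner proteins such as Cfap45, Cfap52 and Cfap53. Of 11 tested doublet members 3 rose and 2 fell (27.3% and 18.2%, against 11.7% and 14.1% of all tested genes). Tekt1 had 1.49, 1.07 and 1.34 CPM in WT and 3.36, 2.92 and 3.33 CPM in EED-/-. It had the highest fold of the members that rose, 2.45-fold, with a log2 change of 1.29 (SE 0.226, adjusted p = 0.00444). Tekt1 (ENSMUSG00000020799.16) lies on chromosome 11 at 72344722 to 72362442. Tekt5, best known from sperm tails, had 4.46, 5.53 and 6.46 CPM in WT and 13.4, 10.6 and 9.84 CPM in EED-/- (log2 fold change 1.04, SE 0.195, adjusted p = 0.00596), and was the most abundant called member in EED-/-.

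Tekt2, needed for motile cilia and sperm tails, fell while Tekt1 and Tekt5 rose. It had 7.03, 7.99 and 6.77 CPM in WT and 2.75, 4.04 and 2.15 CPM in EED-/-. Its highest EED-/- library was below its lowest WT library, and the log2 fold change was -1.28 (SE 0.241, adjusted p = 0.00613). Tekt2 (ENSMUSG00000028845.15) lies on chromosome 4 at 126322121 to 126325688, and 20.8% of its exonic bases are shared with the opposite-strand transcript Gm12945, which had at most 0.0979 CPM in any library. Per kilobase of exon, Tekt2 was above Tekt1 in WT (3.82 against 0.802 CPM per kb) and below it in EED-/- (1.57 against 1.97 CPM per kb). The difference of their changes was not tested.

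Cfap45 rose from 1.27 ± 0.209 to 2.31 ± 0.0773 CPM (log2 fold change 0.86, adjusted p = 0.0275), but its call ended in 8 of 14 alternatives, DESeq2 among them. Cfap53, which also acts in left-right patterning, fell from 1.13 ± 0.271 to 0.463 ± 0.157 CPM (-1.28, adjusted p = 0.0356) on 65 and 29 counts over the groups. Its call ended in 7 of 13 alternatives. With the filter of at least 1 CPM in 3 libraries Cfap53 was not tested. Cfap52 and Cfap77 had changes of 1 and 0.97 without overlap and adjusted p-values of 0.0912 and 0.0696. Tekt4 had 2.21, 0.59 and 1.86 CPM in WT and 1.51, 1.69 and 2.01 CPM in EED-/-, so WT replicate 2 stood apart and the genotypes overlapped. Cfap20, the most abundant member of this structure, had 31.2 ± 0.572 and 28.5 ± 1.43 CPM (-0.13, adjusted p = 0.408).

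Of 8 tested CFAP members outside these structures 1 fell and 0 rose, where 14.1% of all tested genes were called lower and 11.7% higher. There were 2 higher at an unadjusted p under 0.05 and 0 higher by DESeq2 or limma-voom. Cfap58, a gene of sperm tail formation, had 0.821, 1.13 and 1.09 CPM in WT and 0.284, 0.47 and 0.441 CPM in EED-/- (log2 fold change -1.33, SE 0.34, adjusted p = 0.0217). It rests on 58 and 25 counts over the groups (6, 10 and 9 in the EED-/- libraries), so Cfap58 passed the low-count filter through its WT libraries. Its call ended in 6 of 13 alternatives, DESeq2 among them. With the filter of at least 1 CPM in 3 libraries Cfap58 was not tested. Cfap36, a ciliary protein that binds the small GTPase Arl3, was the most abundant member of all, with 38.5, 81.3 and 63 CPM in WT and 77.8, 76 and 97.8 CPM in EED-/-. WT replicate 1 was low and the genotypes overlapped (log2 change 0.46, adjusted p = 0.217); without WT replicate 2 Cfap36 was called higher. Cfap298 and Cfap300, which act in the assembly of dynein arms in the cytoplasm, had changes of 0.03 and 0.47 and were not called.

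**Figure D2:**
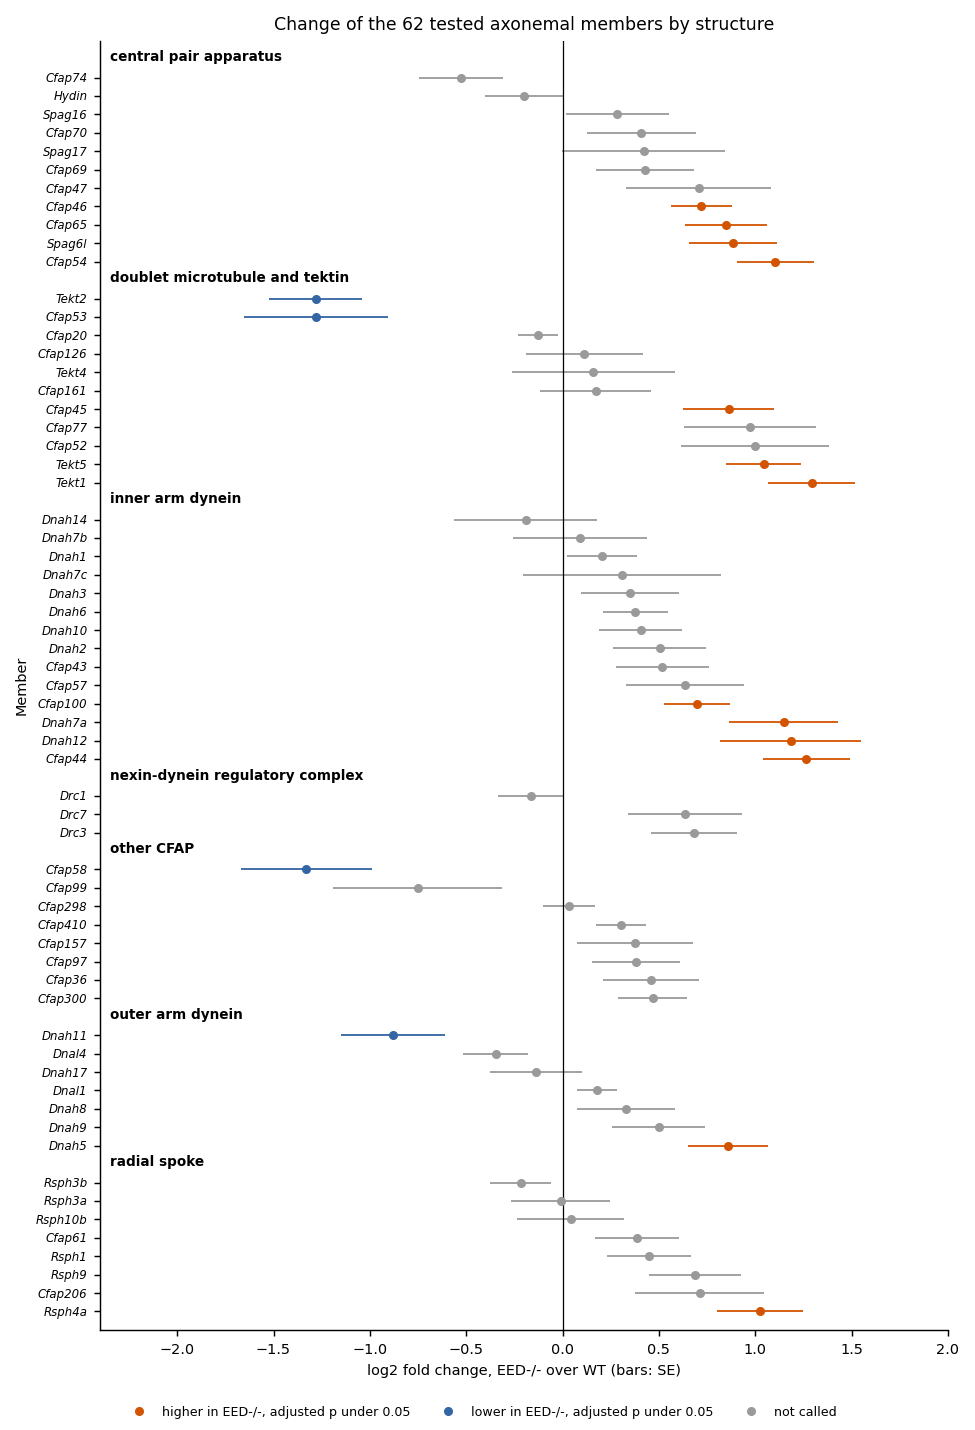
Log2 fold change of EED-/- over WT with its SE for the 62 tested members, grouped by structure; orange marks members called higher, blue members called lower and grey members not called. Of tested members, 4 of 11 central pair, 4 of 14 inner arm and 1 of 8 radial spoke genes rose and 0 fell. Over all tested genes 11.7% were called higher and 14.1% lower. The 4 falls lie in the doublet (2 of 11), outer arm (1 of 7) and other CFAP (1 of 8) groups. The remaining rises lie in the doublet and outer arm groups.

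The calls lay among members with a mean under 10 CPM. Over all tested genes of any level 25.8% were called, and shares of all genes by level are not given here. Of 10 members with a mean of at least 10 CPM over all libraries edgeR, DESeq2 and limma-voom called 0, and 1 had an unadjusted p under 0.05. These 10 were Cfap36, Dnal1, Cfap20, Cfap97, Cfap410, Dnal4, Dnah6, Cfap298, Rsph3b and Dnah7b, with log2 changes from -0.35 to 0.46. Of 13 members at 5 to under 10 CPM 5 rose and 2 fell, of 31 at 1 to under 5 CPM 7 rose and 0 fell, and of 8 under 1 CPM 1 rose and 2 fell. Per kilobase of exon, Cfap36 was at 22.2 and Cfap298 at 8.98 CPM per kb in WT, while the called members ranged up to 3.82 CPM per kb (Tekt2).

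EED-/- libraries did not carry the members equally. EED-/- replicate 3 was the highest of its group for 40 of 62 tested members (64.5%), against 39.8% of all tested genes, and EED-/- replicate 1 was the lowest for 31 (50%), against 23.5%. For the inner arm genes the summed level was 63.6, 74.7 and 97.7 CPM in EED-/-, against 53.3, 59.6 and 58 CPM in WT. Without EED-/- replicate 3, 9 members were still called higher. Of the 13 members called higher, those not called without it were Cfap45, Dnah12, Dnah7a and Spag6l.

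Of 41 tested genes of the axoneme and of ciliary motility outside the rule, 11 rose, 1 fell and 29 were not called, where 11.7% of all tested genes were called higher and 14.1% lower. They had a median log2 change of 0.47, and 38 of 41 changes were positive. Iqcg, of the nexin-dynein regulatory complex, rose from 5.49 ± 0.843 to 10.5 ± 0.448 CPM (adjusted p = 0.00452). Mns1, of the doublet lumen, rose 1.87-fold, Enkur 2.66-fold, and Nme5, of the radial spoke, 1.81-fold. Spef1, which binds central pair microtubules, fell from 21.7 ± 2.35 to 12.9 ± 2.85 CPM (adjusted p = 0.0163). The 11 became 5 without WT replicate 3 and 3, 6 and 7 without EED-/- replicates 1, 2 and 3; Spef1 lost its call when WT replicate 1 or either of EED-/- replicates 1 and 3 was left out. Wdr63 and Wdr78, intermediate chains of inner arms that newer annotations name Dnai3 and Dnai4, had changes of 0.90 and 0.53 and were not called (adjusted p = 0.0549 and 0.104).

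Of 19 tested genes that assemble or dock dynein arms, 2 rose and 0 fell. The share that rose (10.5%) was near the 11.7% of all tested genes, of which 14.1% were called lower. There was 1 lower at an unadjusted p under 0.05 and 0 lower by DESeq2 or limma-voom. Lrrc6, an assembly factor, rose from 0.593 ± 0.213 to 1.66 ± 0.42 CPM, and Ttc25, of the docking complex, from 0.974 ± 0.151 to 1.78 ± 0.151 CPM. The median change was 0.45. A single assembly or docking gene was higher when WT replicate 3 or EED-/- replicate 2 was left out, and 0 were when EED-/- replicate 1 or 3 was. The list of intraflagellar transport genes, which primary cilia also use, also holds Bbs genes, Ttc8, Arl13b and Tulp3. Its median change was 0.11, and of 42 tested genes 3 rose (Wdr35, Wdr34 and Wdr60) and 2 fell (Tulp3 and Ift27). These shares (7.14% and 4.76%) were below the 11.7% and 14.1% of all tested genes. Leaving out WT replicate 1 gave 5 rises, WT replicate 3 or EED-/- replicate 1 gave 0, and EED-/- replicate 2 gave 1; a single fall was called when any library other than WT replicate 2 was left out. The genes of this list are far more abundant in sum, at 1227 ± 95.7 and 1313 ± 73.1 CPM, than the 69 members.

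Of 14 tested regulators of the multiciliated programme 2 rose and 2 fell, shares near the 11.7% and 14.1% of all tested genes, with a median change of -0.09. Foxj1 had 12.9, 8.15 and 10.5 CPM in WT and 15.5, 20.8 and 18.5 CPM in EED-/- (log2 fold change 0.79, SE 0.194, adjusted p = 0.0184), and Rfx2, which binds the X-box, rose 1.8-fold. The more abundant RFX factor Rfx3 was not called, at 28.1 ± 12.6 CPM in WT and 24.6 ± 4.78 CPM in EED-/- (log2 change -0.19, adjusted p = 0.676). Trp73, which acts upstream of Foxj1 in multiciliated cells, fell from 12.6 ± 1.25 to 2.6 ± 0.382 CPM (adjusted p = 0.000115), and E2f4 fell 1.45-fold. Both rises were lost without WT replicate 3 or EED-/- replicate 2, and a single regulator was lower when WT replicate 1 or 3, or EED-/- replicate 1 or 3, was left out. Mcidas, Cdc20b and Foxn4 were too low to be tested.

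Markers of ependymal cells, the cells of the cerebellar ventricle that bear these cilia, were present. Of 23 tested 8 rose and 2 fell (34.8% and 8.7%, against 11.7% and 14.1% of all tested genes), with a median log2 change of 0.62. Of the 8, 2 (Foxj1 and Enkur) are also in the lists above. Gm973 rose from 3.74 ± 0.112 to 8.06 ± 0.641 CPM (adjusted p = 0.0018), Fam216b 2-fold and Tmem212 from 0.504 ± 0.154 to 1.18 ± 0.393 CPM. Ccdc153, a defining marker, was not called at 1.81 ± 0.256 and 2.24 ± 0.67 CPM, and Mia fell 3.43-fold. Their summed level was 231, 180 and 210 CPM in WT and 218, 257 and 266 CPM in EED-/-, which overlapped, and 0 of the 27 listed markers were at 0 counts in every library. Leaving out WT replicate 2 or EED-/- replicate 3 gave 4 rises, leaving out WT replicate 3 or EED-/- replicate 1 gave 3, and leaving out EED-/- replicate 2 gave 2; a single fall was called without any one library. The part of the number of ependymal cells in the members' change was not tested.

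Of 20 markers of choroid plexus, whose epithelium lies next to the ependyma in the dissected tissue, 2 rose (Sulf1 and Slc13a4) and 0 fell. The share that rose (10%) was near the 11.7% of all tested genes, of which 14.1% were called lower. There was 1 marker lower at an unadjusted p under 0.05 and 0 lower by DESeq2 or limma-voom. Ttr, the most abundant choroid plexus transcript, had 708, 725 and 752 CPM in WT and 499, 342 and 730 CPM in EED-/- (adjusted p = 0.186), highest in EED-/- replicate 3 of the knockouts. Without EED-/- replicate 3, 3 markers were lower; 1 was higher without any library other than WT replicate 1. Of 14 microglia markers 12 rose, where 11.7% of all tested genes were called higher. Their summed level went from 229 ± 5.83 to 425 ± 33.3 CPM without overlap, and their part in the members' values was not tested. Germline markers were largely absent: of 31 listed, 12 could be tested and 6 had 0 counts in every library. Among them the protamine Prm1 rose from 11 to 495 counts over the groups, and Odf2, which centrosomes also use, fell 1.93-fold. These were 8.33% each of the tested markers, against 11.7% and 14.1% of all tested genes. Without WT replicate 2 there were 3 rises of 13 tested, where 11% of all tested genes were called higher.

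**Figure D3:**
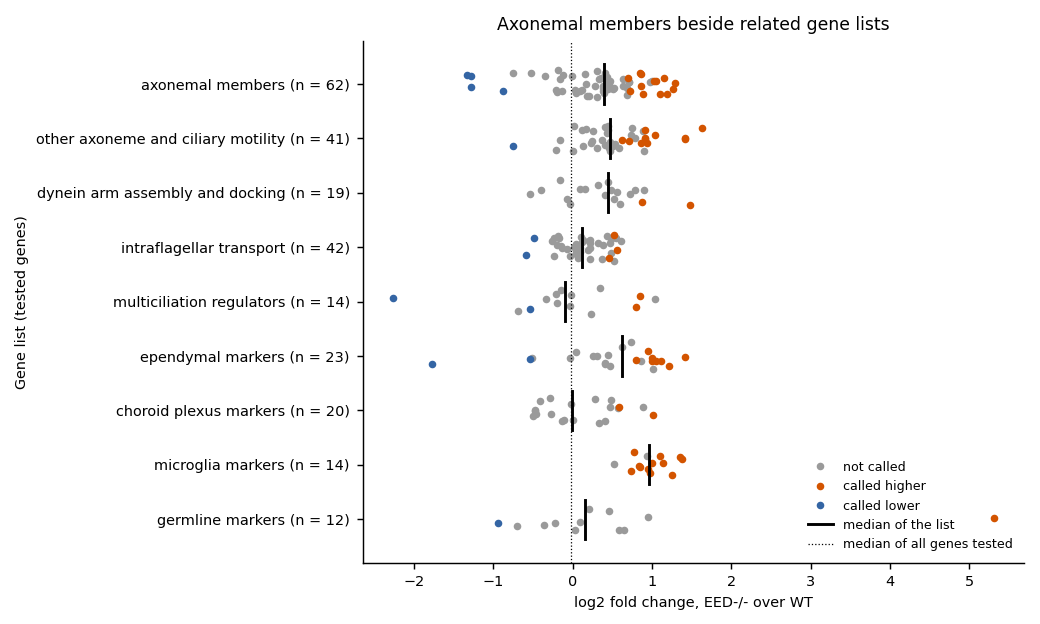
Log2 fold changes of tested genes in the axonemal set and 8 related lists, coloured by call, with a thick line at each list's median and a dotted line at the median of all tested genes. The medians of the axonemal members (0.40), other axoneme genes (0.47) and assembly genes (0.45) lie close together. Those of ependymal markers (0.62) and microglia markers (0.96) are higher. Those of intraflagellar transport (0.11), regulators (-0.09), choroid plexus markers (-0.01) and germline markers (0.15) lie nearer the median of all genes.

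In the authors' deposited table, an adjusted p below 1 was given for 66 members, of which 11 were higher and 2 lower at an adjusted p under 0.05, where 10.3% and 11.4% of genes were. All 13 were also called by edgeR in the same direction. The 4 members called here and not in the authors' deposited table were Cfap45, Cfap53, Cfap58 and Dnah7a, each under 2 CPM on average.

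Across other tests, scalings and filters the members kept more rises than falls. DESeq2 called 11 higher and 2 lower (10.2% and 11.2% of all genes), and limma-voom 12 and 3 (11.7% and 13.8%). RLE factors gave 14 and 4 (12.6% and 12.7%), upper-quartile scaling 17 and 3 (15.6% and 9.87%), and library size alone 16 and 3 (14.6% and 10.3%). With no low-count filter 14 and 4 were called (6.57% and 6.73% of more genes), and with at least 1 CPM in 3 libraries 14 and 2 (13.3% and 13.6%). A replicate block gave 9 and 2 (8.32% and 9.43%). Drc3, Rsph9, Cfap300 and Cfap77 were the members that some of these settings added.

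**Figure D4:**
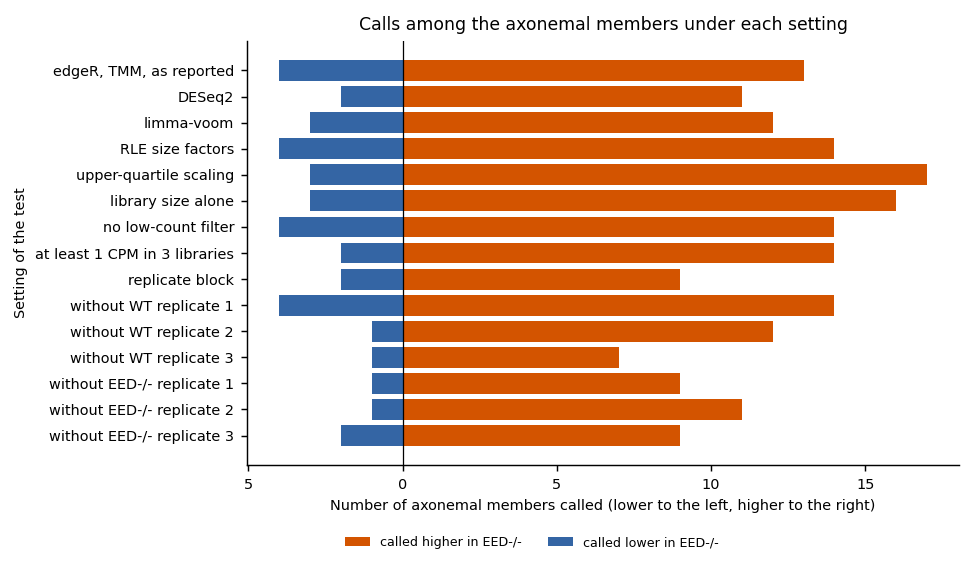
Number of axonemal members called higher (right) and lower (left) in EED-/- under the reported test and 14 alternatives. Higher calls range from 7 (without WT replicate 3) to 17 (upper-quartile scaling) and exceed lower calls in each setting.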

How the data were processed

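Each gene has 1 deposited estimated count per library. The file headers name no scaling, and 22.5% to 23.6% of values in a library are not whole. The submitters' processing notes list the mouse builds GRCm38 and mm10 and the tools Bowtie2 2.4.1, DESeq2 1.26.0, MACS2, Salmon 1.1.0 and Trimmomatic 0.36, without their roles, and nothing read here says whether strand was used. The authors' deposited table holds, per the file headers, a log2 fold change, its statistic (a score), a mean signal, and raw and adjusted p-values. Its adjusted p-value was 1 for 14559 genes with a raw one, which were not counted as tested.

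Counts were rounded, filtered with filterByExpr (18091 of 35196 genes with a count) and tested with edgeR 4.0.16 in R 4.3.3 (TMM, estimateDisp, glmQLFit, glmQLFTest, robust), two-sided, with genotype as the only term. Each SE was taken as |log2 change| over √F. Alternatives used DESeq2 1.42.0, limma 3.58.1, other scalings and filters, a replicate block and fits without each library. The procedure was tested on simulated data. Libraries of a genotype were not duplicates of each other (chi-square over degrees of freedom 8.36 to 55.2). Exon lengths, overlaps and positions came from GENCODE M21 (GRCm38), symbols from the authors' table, and promoters from RefSeq.

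Members and lists were chosen with earlier results of these data known. Named were all called members, the most abundant tested member of each structure, and up to 4 called genes per list; others were named after values were seen.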

Additional observations from a re-analysis of the deposited data

How the results depend on the processing

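The median change of the members was positive in all alternatives, from 0.38 to 0.51, and none of the 17 called members changed direction in the alternatives run; Rsph3a, near 0 and not called, changed sign with RLE, upper-quartile scaling and library size alone. Members called lower numbered 2 with DESeq2, with at least 1 CPM in 3 libraries and with the replicate block; leaving out members that share exonic bases or have near-identical paralogues, an alternative chosen after seeing the data that kept 31 tested members, gave 8 higher and 2 lower. Deviations of same-numbered libraries had correlations of 0.03, -0.23 and -0.001, and those of differently numbered libraries ranged from -0.19 to 0.20. With 3 libraries per genotype, these values cannot show whether the numbers pair the samples. The replicate block called 9 members higher. With the block, higher and lower calls were 1 and 1 for multiciliation regulators, 0 and 1 for intraflagellar transport, 3 and 1 for ependymal markers, and the higher calls 4 for other axoneme genes and 1 each for dynein arm assembly and choroid plexus. DESeq2 gave 1 higher assembly gene and 4 higher and 1 lower ependymal markers. Lower ependymal markers were 1 with RLE, upper-quartile scaling, library size alone and both other filters. Upper-quartile scaling and library size alone gave 1 lower regulator and 1 lower transport gene each, and upper-quartile scaling 5 higher transport genes; with no low-count filter 1 assembly gene was higher, 1 transport gene lower and 2 germline markers higher. Leaving out 1 library at a time, higher and lower calls ranged from 7 to 14 and 1 to 4 for members, 0 to 2 and 1 to 2 for regulators, 3 to 9 and 0 to 1 for other axoneme genes, 0 to 5 and 1 to 2 for transport, 2 to 6 and 1 to 1 for ependymal markers, 1 to 2 and 0 to 3 for choroid plexus; higher calls ranged from 0 to 2 for assembly and 1 to 3 for germline markers. The causes were not tested. Members under 1 CPM rest on few counts, and 7 were too low to be tested.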
